A study of Danio rerio with 12 samples.

Results

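The response of the adult zebrafish retina to a lesion was compared between 7 and 3 days post-lesion. For every gene, the log2 ratio of lesioned over control retina was taken within each day, and the day 3 ratio was subtracted from the day 7 ratio. A positive difference therefore means that the lesioned retina stood higher against its own control on day 7 than on day 3. The comparison uses 4 of the 12 arrays of the series: lesioned and control retina of day 7, and lesioned and control retina of day 3. The series also holds lesioned and control retina at 2, 5 and 14 days, 1 brain and 1 true control retina.

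All 4 arrays carry total RNA from the retina of adult Danio rerio, and the submitters' design text gives matched animals, with a minimum of 8 in each condition. The sources used here give neither the strain, nor how the lesion was made, nor the number of animals behind an array. No genetic change or drug is named for any group, and each condition is 1 array. The deposited unit is the linear signal intensity of a probe set, and ratios were taken of signal + 50, which understates the change of genes with low signal.

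Müller glia are the radial glia of the retina and re-enter the cell cycle after injury in fish and give rise to neuronal progenitors. Cytokine signalling through STAT3, the transcription factor Ascl1a and matrix proteases take part in the early steps. Progenitor division, differentiation and the regrowth of axons and synapses follow. A contrast of the first days with the end of the first week thus sets genes of the early response beside those of proliferation and regrowth.

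The arrays of days 3, 5 and 7 resembled each other in several array measures and stood apart from the rest. The mean signal of their hybridization controls was 3414 to 6731, against 2553 to 2944 on the other 6 arrays. Their highest signal was 56928 to 90586, against 29844 to 34083.5. They were treated as a single technical batch, which the sample titles do not name. Their GAPDH 5'/3' signal ratio, which falls when RNA or target is shortened, was 0.103 to 0.245, against 0.692 to 0.854 on the other 6 arrays. Within the comparison it was 0.205 in lesioned and 0.245 in control retina of day 7, and 0.103 in lesioned and 0.158 in control retina of day 3. By this ratio the lesioned arrays were lower than their controls by a log2 difference of -0.25 on day 7 and -0.62 on day 3. The 5'/3' ratio of 1 actin gene, acta1, ran the other way, with lesioned above control by 1.52 on day 7 and 1.83 on day 3. Its lowest value of the 12 arrays, 0.0392, was in control retina of day 3. The acta1 ratio was 1.93 in true control retina and 1.59 in lesioned retina of day 14. Whether it measures RNA quality in these samples was not tested. The part of RNA quality in the results was not tested. Median signal was 135 to 147 on the 4 arrays. Among retinal markers, gnat1, the rod transducin subunit, gnat2, its cone counterpart, and glula, the glutamine synthetase of Müller glia, were bright. Their lowest signals over the 4 arrays were 7759, 8367 and 9234. The Müller glia marker gfap was far dimmer, at 175.7 to 312.3.

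Few genes moved far, and those that did split nearly evenly by direction. Of 9301 tested probe sets, 82 were at least 2-fold higher on day 7 (0.882%) and 87 at least 2-fold lower (0.935%). With 1 array per condition this size is a description without a test. The difference had a median of 0.01 and ran from -0.64 to 0.66 between the 5th and 95th percentiles. Across probe sets, which are not independent, the ratios of day 7 and day 3 correlated at r = 0.48. A test needs pairs of other days, and the day 5 pair, whose arrays were treated as the same technical batch, was used. Its ratio was set against the midpoint of days 3 and 7, and that 1 residual degree of freedom was moderated in limma with the intensity trend, so that a true bend over time counts as error. Adjusted over all probe sets, limma called 1 probe set higher (0.0108%) and 4 lower (0.043%), and 273 had an unadjusted p under 0.05 (2.94%). limma made 0 calls with no filter on low signal, with a 60th percentile filter, without the day block or with all 5 day pairs, and under quantile normalization it called only tmsb and krt5.

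Read on the brightest tested probe set of each gene, 46 of 6034 genes were at least 2-fold higher (0.762%) and 56 at least 2-fold lower (0.928%). The 5 limma calls were 5 different genes (0.0829%). The genes past 2-fold fell into 4 patterns, set by the day with the larger ratio and by its sign. In 25 late-high genes the lesioned retina exceeded control mainly on day 7, and in 41 early-high genes mainly on day 3. In 21 early-low genes it lay below control mainly on day 3, and in 15 late-low genes mainly on day 7. The nearest genes outside the threshold were stxbp6l, with ratios of 0.35 on day 7 and -0.65 on day 3, cdca8, with 1.49 and 0.50, and zgc:64051, with a difference of -0.99. The nearest inside were tmem230a, with ratios of -0.74 on day 7 and 0.26 on day 3, pcdh8 at a difference of 1.01 and rgs5a at -1.01.

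**Figure D1:**
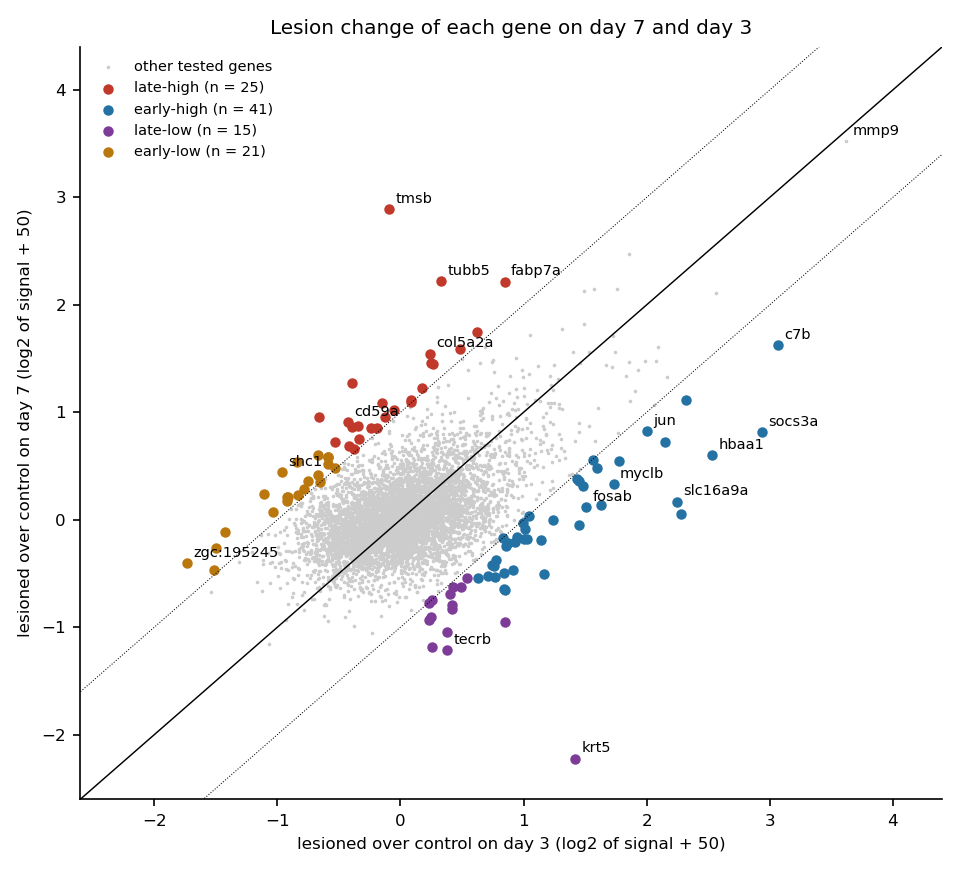
Each point is 1 of 6034 tested genes, placed by its log2 ratio of lesioned over control retina on day 3 (x axis) and day 7 (y axis); coloured points are the 102 genes past the 2-fold difference, by pattern, the solid line marks equal ratios and the dotted lines a difference of 1. mmp9 lies near the line with ratios of 3.52 on day 7 and 3.62 on day 3, tmsb far above it and krt5 far below it. The places of all 3 depend on the added constant, because each has a control array with low signal.

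The late-high genes were led by genes of the actin and tubulin cytoskeleton. tmsb, a beta-thymosin that binds actin monomers, had a signal of 377 in lesioned and 7.5 in control retina of day 7, and 69.6 in lesioned and 77.4 in control retina of day 3. Lesioned retina of day 7 was the highest of the 4 arrays, and control retina of day 7 was close to no signal. It rose by 2.98 ± 0.49 SE on the log2(signal + 50) scale (limma adjusted p = 0.000431). The added constant sets this size, since tmsb rose by 4.19 with 16 added and by 2.22 with 100. Both arrays of day 7 took part, since the lesioned signal was 1.84 higher than on day 3 and the control signal 1.15 lower.

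tubb5, a beta-tubulin, had a signal of 2607.5 in lesioned and 521 in control retina of day 7, and 788.5 in lesioned and 617 in control retina of day 3. Only the lesioned array of day 7 stood apart. The difference of 1.89 ± 0.44 SE did not pass the test (limma adjusted p = 0.0933), and a second probe set gave 0.79. marcksb and marcksa encode MARCKS proteins, protein kinase C substrates that bind actin and the plasma membrane. marcksb had a signal of 5240.1 in lesioned and 1871 in control retina of day 7, against 1867 in lesioned and 1566 in control retina of day 3, a difference of 1.22. For marcksa the difference was 1.19 on the brightest probe set and -0.01 on the other, so its direction depends on the probe set. In the list of 55 axon growth, tubulin and cytoskeleton genes, tmsb, tubb5, marcksb and marcksa passed 2-fold upward (46 of 6034 over all tested genes). In the same list jun passed downward (56 of 6034). The list's median difference was -0.03, against 0.01 for all tested genes.

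Matrix genes formed another group on the late-high side. col5a2a, a chain of type V collagen, had a signal of 359.5 in lesioned and 90.2 in control retina of day 7, and 105 in lesioned and 81.4 in control retina of day 3. postnb, a periostin that is secreted into the matrix, had 355 in lesioned and 70.6 in control retina of day 7, and 98.4 in lesioned and 46.7 in control retina of day 3. For both genes the lesioned array of day 7 was more than 3 times as bright as any of the other 3 arrays, with differences of 1.31 and 1.13. mmp2, a gelatinase, had ratios of 0.86 on day 7 and -0.24 on day 3, and krt18b, a simple-epithelium keratin, had 1.22 on day 7 and 0.17 on day 3. A second probe set of mmp2 gave a difference of 0.44, with ratios of 0.52 on day 7 and 0.08 on day 3. The list of 40 extracellular matrix and remodelling genes also holds keratins. In it 4 genes passed 2-fold upward (46 of 6034 over all tested genes), krt18b among them, and 1 downward, the keratin krt5. In the list 27 lay above 0 (3125 of 6034) and the median difference was 0.24. Of 62 genes of the list on the array, these 40 passed the filter on mean signal. As for every list, that mean includes lesioned retina of day 7, so genes high there pass more easily. The median ratio of the list was 0.63 on day 7 and 0.38 on day 3. Dimmer probe sets of col1a1a and col1a2, chains of type I collagen, gave 1.43 and 1.42, while the brightest gave 0.46 and 0.66; these collagens were named after their values were seen.

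A radial glia gene and genes of membrane proteins were among the other late-high genes. fabp7a, a fatty acid-binding protein of radial glia, had a signal of 3759 in lesioned and 769.7 in control retina of day 7, against 1554 in lesioned and 842 in control retina of day 3. The controls of the days were close, and the lesioned signal was higher on day 7, for a difference of 1.37. It was the 1 gene past 2-fold among 21 Müller glia genes (46 of 6034 upward over all tested genes). Their median difference was 0.25 with 15 above 0 (3125 of 6034). The list's median ratio was nevertheless 0.23 on day 7 and 0.33 on day 3, so the medians of ratios and of differences point opposite ways. rlbp1a, a retinoid-binding protein of Müller glia and pigment epithelium, was at 0.86 with its lowest signal in lesioned retina of day 3, and gfap, a glial intermediate filament, was at -0.06. cd59a, an inhibitor of the complement membrane attack complex, had a signal of 11591 in lesioned and 6163 in control retina of day 7, and 3146 in lesioned and 4247.5 in control retina of day 3. cd9b, a tetraspanin, had 1398 in lesioned and 744 in control retina of day 7, and 448 in lesioned and 605 in control retina of day 3. In both genes the lesioned array was below its control on day 3 and above it on day 7, with differences of 1.33 and 1.26. rcc2, a regulator of chromosome condensation and mitotic progression, did the same, with ratios of 1.08 on day 7 and -0.15 on day 3.

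**Figure D2:**
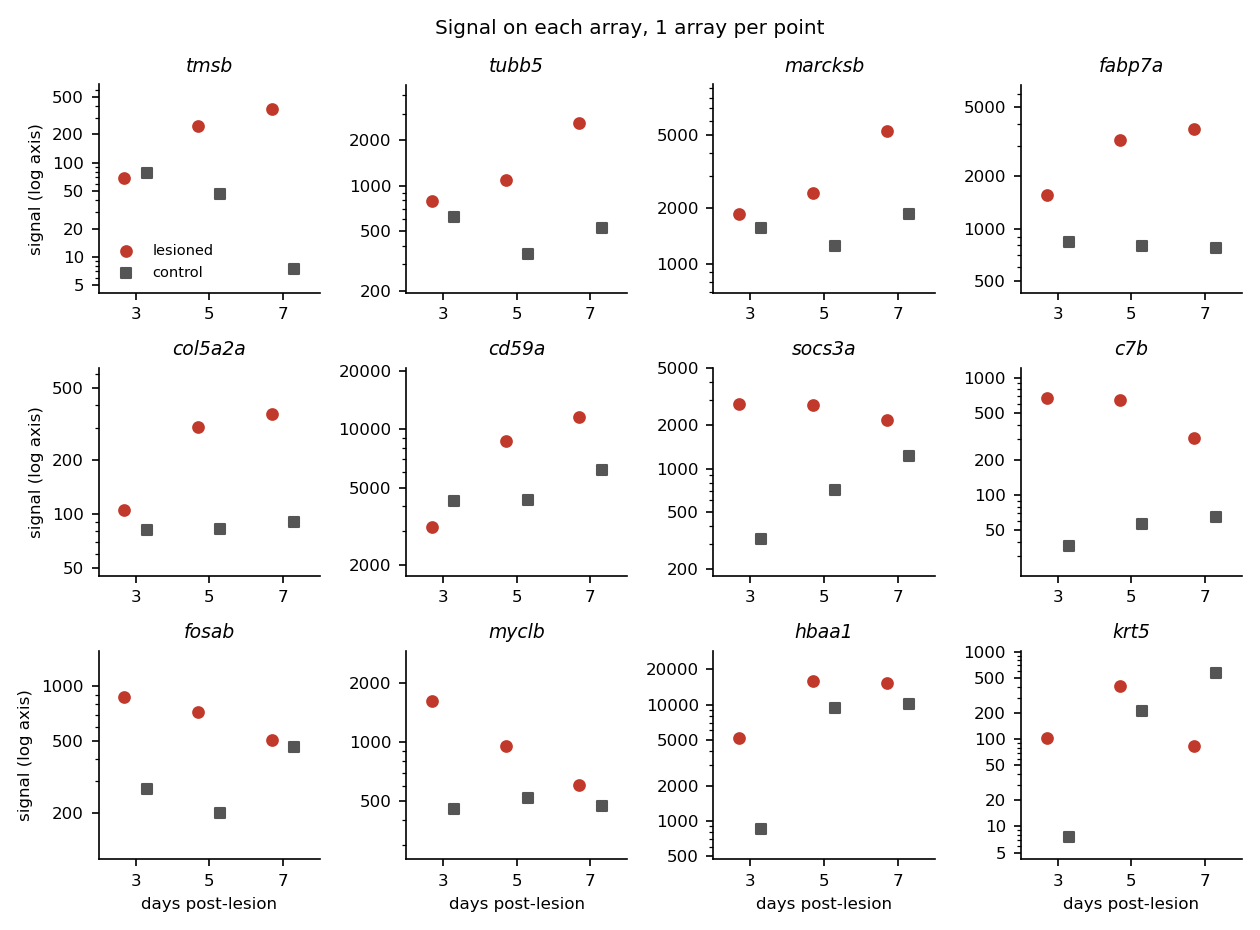
Signal intensity (log axis) of 12 genes on the lesioned and control arrays of days 3, 5 and 7, 1 array per point and without error bars because no condition has replicates. For tubb5, fabp7a and col5a2a the lesioned point of day 7 is the highest, whereas for socs3a and hbaa1 the control point of day 7 lies far above the control point of day 3.

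Dividing cells leave transcripts of both DNA synthesis and mitosis, and the lists differed between the days by different amounts. Of 56 genes of the mitosis and chromosome segregation list on the array, 21 passed the filter on mean signal. That mean includes lesioned retina of day 7, so genes high there pass more easily. Among the 21 tested, 19 were above 0 (3125 of 6034 over all tested genes) and 2 passed 2-fold upward (46 of 6034), with a median difference of 0.37. The list also holds genes of chromatin and the nuclear lamina that are not specific to mitosis, such as hmgb2a, hmgn2, h2az2b and lmnb1. The median ratio of the list was 0.78 on day 7 and 0.26 on day 3. ccnb1, the mitotic cyclin B1, had a signal of 206 in lesioned and 81.8 in control retina of day 7, and 76.6 in lesioned and 88.1 in control retina of day 3. cdca8, a chromosomal passenger protein, had 217 in lesioned and 44.8 in control retina of day 7, and 102 in lesioned and 57.5 in control retina of day 3, and lay just under the threshold. In both genes the lesioned array of day 7 was the highest of the 4. The difference of spc24, a kinetochore protein, was larger at 1.67, but its lesioned signal was lower on day 7 than on day 3. Its signal was 116.5 in lesioned and 18.7 in control retina of day 7, and 163 in lesioned and 229 in control retina of day 3.

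Among 39 genes of G1 cyclins, S phase and DNA replication, none passed 2-fold and the median difference was 0.19, with median ratios of 0.51 on day 7 and 0.50 on day 3. pcna, the replication clamp, differed by 0.26 and mcm2, a subunit of the replicative helicase, by 0.57. ccnd1, a G1 cyclin, differed by 0.81, with a signal of 843 in lesioned and 276 in control retina of day 7, and 334 in lesioned and 196 in control retina of day 3. Within whole tissue, more cells of a type and more RNA per cell cannot be told apart.

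The early-high genes held the feedback inhibitor of STAT3 signalling, a complement component and transcription factors of the stress response. socs3a, which limits cytokine signalling, had a signal of 2183 in lesioned and 1220.2 in control retina of day 7, and 2801.5 in lesioned and 323 in control retina of day 3. Its ratio was 0.81 on day 7 and 2.94 on day 3, and the lesion change fell by 2.12 ± 0.43 SE on the log2 scale (limma adjusted p = 0.0212). Most of that lay in the controls, which were 1.77 higher on day 7, while the lesioned arrays differed by -0.35. socs3b, its paralogue, showed the reverse split, with a lesioned move of -1.19, a control move of -0.35 and a difference of -0.84. stat3 itself differed by 0.07, being lower in both lesioned and control retina on day 7. Of 20 JAK-STAT and cytokine genes, socs3a and tgfb1a passed 2-fold downward (56 of 6034 over all tested genes). In this list 11 lay above 0 (3125 of 6034) and 9 below (2909 of 6034), and the median was 0.01.

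c7b, which encodes a protein of the complement membrane attack complex, had a signal of 307 in lesioned and 65.4 in control retina of day 7, and 680.0 in lesioned and 36.9 in control retina of day 3. The lesioned array exceeded its control on both days, and the excess was smaller on day 7, with ratios of 1.63 on day 7 and 3.07 on day 3. myclb, a Myc family transcription factor, had 605 in lesioned and 470.4 in control retina of day 7, and 1627 in lesioned and 455 in control retina of day 3. Here the controls were alike, and the lesioned array of day 3 alone was high.

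fosab and jun encode partners in the AP-1 transcription factor. fosab had a signal of 505 in lesioned and 462 in control retina of day 7, and 870.1 in lesioned and 273 in control retina of day 3. The lesioned array was almost level with its control on day 7, and the difference was -1.39, with the same direction at just under 2-fold on a second probe set. jun had 983 in lesioned and 533 in control retina of day 7, and 1763 in lesioned and 402 in control retina of day 3. Its difference was -1.18 on this probe set and 0.22 on another. Of 41 immediate early, AP-1 and stress genes, fosab and jun passed 2-fold downward (56 of 6034 over all tested genes), 29 lay below 0 (2909 of 6034) and the median difference was -0.16. atf3, a stress-induced factor, differed by -0.71.

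cyp26b1 and pdia5 were high in lesioned retina of day 3 and level with control on day 7. cyp26b1, which degrades retinoic acid, had a signal of 258 in lesioned and 231 in control retina of day 7, and 618 in lesioned and 166 in control retina of day 3. pdia5, a protein disulfide isomerase of the endoplasmic reticulum, had 252 in lesioned and 263 in control retina of day 7, and 803 in lesioned and 262 in control retina of day 3. Their differences were -1.49 and -1.50, and a second probe set of pdia5 gave 0.75. slc7a8a, an amino acid transporter subunit, differed by -1.50 on one probe set and by 0.18 on another, so its direction is uncertain.

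In many early-high genes the control arrays moved more than the lesioned ones. Of the 41 genes, 23 had the larger move in the controls, 37 had higher control signal on day 7 and 32 had lower lesioned signal on day 7. The median move was -0.58 in lesioned and 0.66 in control retina. Of the 25 late-high genes, by contrast, 20 had the larger move in lesioned retina, where the median move was 1.25, against -0.12 in control retina. Choosing large differences favours higher control and lower lesioned signal on day 7 in early-high genes, and the reverse in late-high genes, by construction. Over all tested genes the median move was 0.05 in lesioned and 0.04 in control retina. Over all tested probe sets the controls moved more in 43.9%. The moves of the lesioned and control arrays correlated across probe sets at r = 0.73, as a description.

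**Figure D3:**
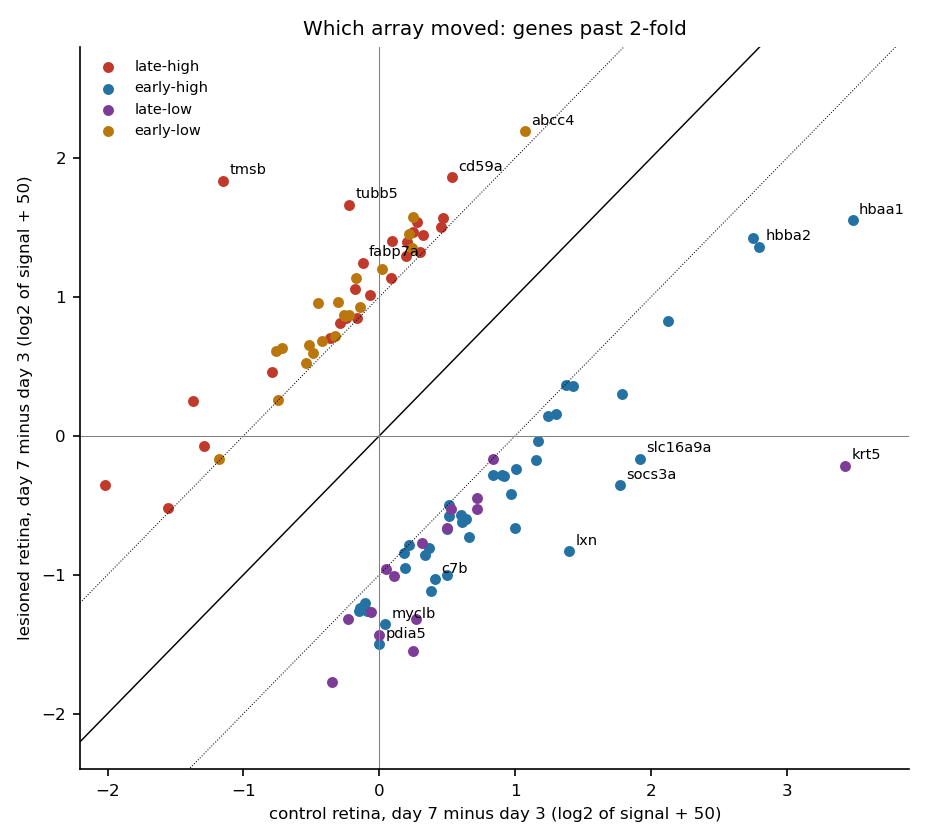
Each point is 1 of the 102 genes past 2-fold, placed by the day 7 minus day 3 difference of the control arrays (x axis) and of the lesioned arrays (y axis), both in log2 of signal + 50, and coloured by pattern; the solid line marks equal moves and the dotted lines a difference of 1. krt5, hbaa1, socs3a and slc16a9a lie to the right, with control moves of 1.77 to 3.48, and the median of the late-high genes is 1.25 on the y axis and -0.12 on the x axis.

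In the other 3 genes called lower the control arrays moved more than the lesioned ones. slc16a9a, of the monocarboxylate transporter family, had a signal of 748 in lesioned and 660.4 in control retina of day 7, and 844 in lesioned and 138 in control retina of day 3. Its change fell by 2.08 ± 0.44 SE (limma adjusted p = 0.0287). krt5, a keratin of stratified epithelium, had 82.7 in lesioned and 570.0 in control retina of day 7, and 104 in lesioned and 7.6 in control retina of day 3. Its change fell by 3.64 ± 0.49 SE on the log2(signal + 50) scale (limma adjusted p = 7.92e-06), with a lesioned move of -0.21 and a control move of 3.43. Its ratio was -2.22 on day 7 and 1.42 on day 3, which places it among the late-low genes. Because the day 3 control was so dim, the added constant sets this size: the difference of krt5 was -4.92 with 16 added and -2.80 with 100. lxn, which encodes a carboxypeptidase inhibitor, had a similar shape with a control signal of 9.5 on day 3, and its difference of -2.23 did not pass (limma adjusted p = 0.0596).

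The globins gave the fourth call. hbaa1, an adult alpha globin, had a signal of 15260.2 in lesioned and 10021 in control retina of day 7, and 5158 in lesioned and 849.6 in control retina of day 3. Its lesion change fell by 1.93 ± 0.39 SE (limma adjusted p = 0.0212), although the lesioned array of day 7 was brighter than that of day 3. The beta globin hbba2 followed the same order over the 4 arrays, with a difference of -1.43. alas2, the erythroid enzyme of haem synthesis, had 524.7 in lesioned and 415 in control retina of day 7, and 125 in lesioned and 75.1 in control retina of day 3, a difference of -0.18. The 15 tested erythrocyte markers had a median difference of -0.01 and a lowest signal of 22.6, with none at 0. Their summed signal was 58432 in lesioned and 48065 in control retina of day 7, and 40637 in lesioned and 35921 in control retina of day 3. The brightest member in lesioned retina of day 7 was fth1a, which is not a globin gene, so the sum does not follow the globins alone. The part of blood in these genes' differences was not tested.

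The summed signal of pigment epithelium and pigment cell markers was higher on day 7 in both conditions, with rpe65a its brightest member. rpe65a, the visual cycle isomerase of the pigment epithelium, had a signal of 21566 in lesioned and 20551 in control retina of day 7, and 9686 in lesioned and 4834 in control retina of day 3. The summed signal of the 7 tested markers was 42514 in lesioned and 37772 in control retina of day 7, and 22392 in lesioned and 14164 in control retina of day 3, with no marker at 0 and a lowest signal of 62.7. None passed 2-fold, and the median difference was -0.47 with 5 of 7 below 0 (2909 of 6034 over all tested genes). The members did not move alike, since pmelb, a melanosome protein, differed by 0.58, rlbp1a by 0.86 and dct, an enzyme of melanin synthesis, by -0.01. The part of pigment epithelium in the other results was not tested.

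Of 23 interferon-induced and antigen presentation genes, 3 passed 2-fold downward (56 of 6034 over all tested genes) and none upward. Their differences were below 0 in 15 (2909 of 6034 over all), and the list had a median difference of -0.22. ifi27.1, an interferon-induced gene, had a signal of 672 in lesioned and 284 in control retina of day 7, and 829.7 in lesioned and 126.5 in control retina of day 3. igldcp had 177 in lesioned and 106 in control retina of day 7, and 293 in lesioned and 50.1 in control retina of day 3. mhc1ufa, a class I histocompatibility gene, had 559 in lesioned and 646 in control retina of day 7, and 177 in lesioned and 53.2 in control retina of day 3. In all 3 the control of day 3 was the lowest array, and for mhc1ufa both arrays of day 7 were the brighter. The summed signal of the 23 genes was 14387 in lesioned and 9294 in control retina of day 7, and 8019 in lesioned and 4158 in control retina of day 3.

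The 21 early-low genes were below control on day 3, with a median ratio of 0.29 on day 7 and -0.84 on day 3. On day 7, 17 of the 21 were above control. zgc:195245 had a signal of 2396 in lesioned and 3188 in control retina of day 7, and 769 in lesioned and 2674 in control retina of day 3. ubald1a had 1635 in lesioned and 1969 in control retina of day 7, and 567 in lesioned and 1689.6 in control retina of day 3. In both, the lesioned array of day 3 was the lowest of the 4, and the differences were 1.33 and 1.24. shc1, an adaptor of receptor tyrosine kinases, was above control on day 7 and below it on day 3, with ratios of 0.44 on day 7 and -0.97 on day 3 and a difference of 1.41. lrrn1, paxip1 and abcc4 followed at 1.18, 1.17 and 1.12, and a second probe set of lrrn1 gave 0.12. abcc4, an export pump, had only 19.3 in lesioned and 80.3 in control retina of day 3, so that the added 50 shapes its value.

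Rod genes lay on the same side without reaching 2-fold. Of 17 rod phototransduction genes, 13 were above 0 (3125 of 6034 over all tested genes) and the median difference was 0.28, with median ratios of -0.24 on day 7 and -0.59 on day 3. gnat1 had a signal of 19329.5 in lesioned and 23815 in control retina of day 7, and 7759 in lesioned and 18019 in control retina of day 3. The lesioned array of day 3 was the lowest by far, and the difference was 0.91. rp1l1a, a gene of the photoreceptor axoneme, differed by 0.87, and nr2e3, a transcription factor of photoreceptors, by 0.68. In rp1l1a the lesioned signal was alike on both days and the control signal was lower on day 7. The 20 cone genes had a median difference of -0.07. The lesioned array of day 3, where rod signal was lowest, also had the lowest GAPDH ratio of the 12 arrays, at 0.103. Its acta1 5'/3' ratio of 0.140 was above that of the day 3 control, at 0.0392.

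The late-low genes were 15, and in all of them the lesioned signal was lower on day 7, a direction that the choice of these genes favours. tecrb, an enzyme of very long chain fatty acid synthesis, had a signal of 1090.5 in lesioned and 2592 in control retina of day 7, and 2793 in lesioned and 2139 in control retina of day 3. Its difference was -1.59, but 2 other probe sets gave -0.21 and -0.03. lman1, a cargo receptor between the endoplasmic reticulum and the Golgi, had 393 in lesioned and 955 in control retina of day 7, and 1147 in lesioned and 955 in control retina of day 3. The controls of lman1 were equal, and the lesioned arrays carried its difference of -1.43. aanat1, which makes the melatonin precursor in photoreceptors, had 711 in lesioned and 1267 in control retina of day 7, and 1782 in lesioned and 1322 in control retina of day 3. Its difference was -1.21, with -0.29 on a second probe set. It was the 1 gene past 2-fold among 27 clock and melatonin genes, whose median was -0.06 (56 of 6034 were past 2-fold downward over all tested genes). znf609a, fhit and gmppab followed at -1.43, -1.16 and -1.12.

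Several genes known from retinal regeneration were near level between the days. mmp9, a secreted matrix protease, had a signal of 1270.1 in lesioned and 65 in control retina of day 7, and 753 in lesioned and 15.3 in control retina of day 3. Both arrays were brighter on day 7 and the difference was -0.10 ± 0.45 SE. The control signals of mmp9 were low, at 15.3 on day 3 and 65 on day 7, so the added constant shapes this value. A smaller constant would give a larger fall, so mmp9 is near level on this scale only. gap43, a growth cone protein, differed by -0.28, mvp, the major vault protein, by -0.48, and ascl1a, a proneural factor of reprogrammed Müller glia, by -0.50. Of 35 regeneration-associated genes, socs3a passed 2-fold downward (56 of 6034 over all tested genes). In the same list tgif1, a repressor of TGF-beta signalling, passed upward (46 of 6034), and the median was 0.07. For tgif1 the lesioned signal was lower on day 7 and the control lower still.

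Immune markers stood above control on both days. The median ratio of 45 immune and microglia genes was 0.86 on day 7 and 0.89 on day 3, and the median difference was 0.00, with 23 above 0 and 22 below. cd9b and lgmn, a lysosomal protease, passed 2-fold upward (46 of 6034 over all tested genes). lgmn had a signal of 890.2 in lesioned and 842 in control retina of day 7, and 319 in lesioned and 705.5 in control retina of day 3, so that it was low in lesioned retina of day 3 rather than high on day 7. laptm5 and coro1a, markers of leukocytes, differed by -0.54 and -0.67, while lcp1, another such marker, differed by 0.15. The 77 ribosomal protein genes had median ratios of 0.60 on both days and split 39 above and 38 below 0.

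**Figure D4:**
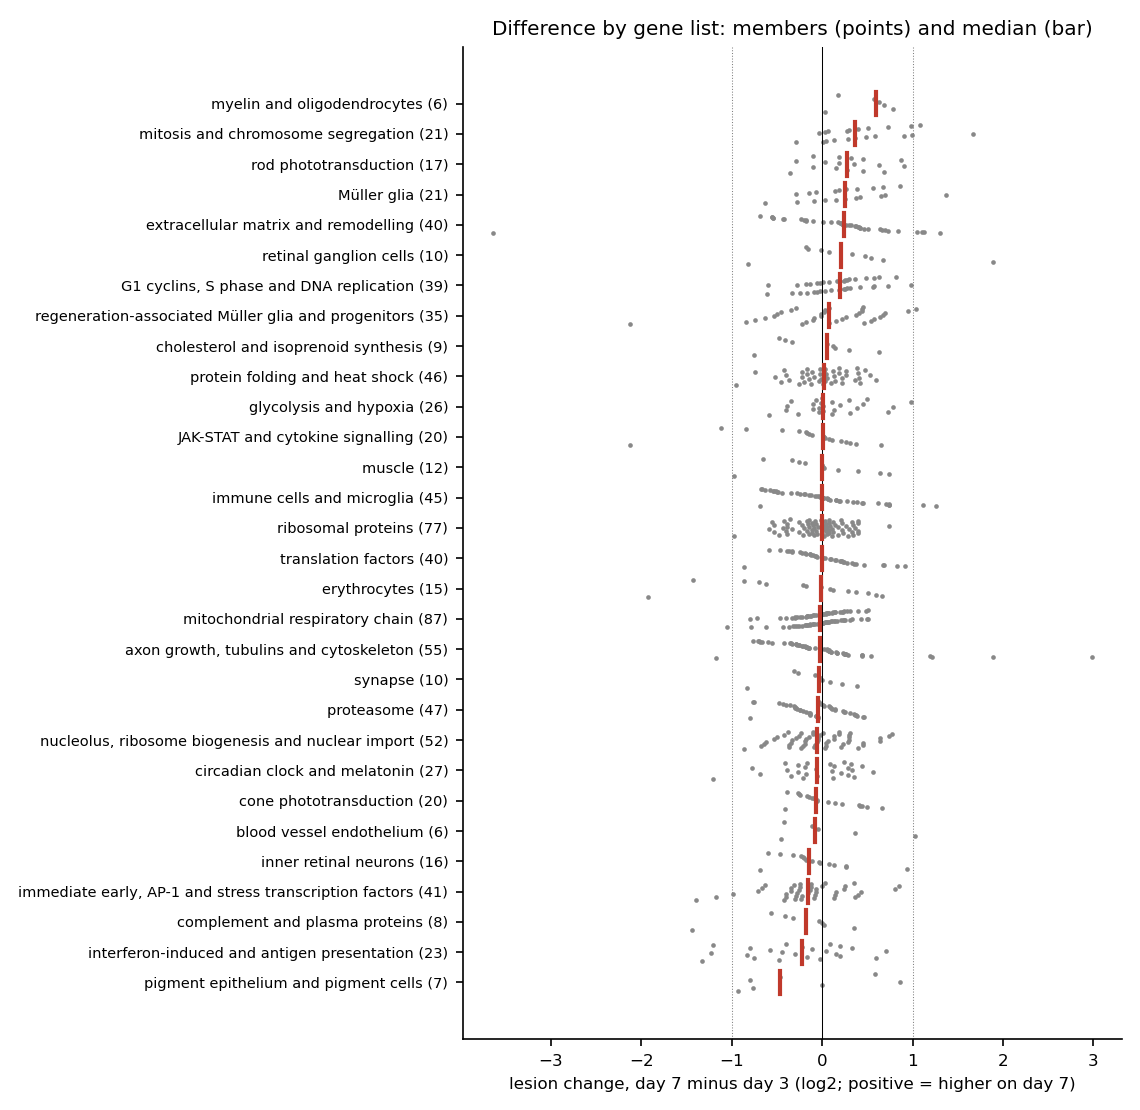
Lesion change on day 7 minus that on day 3 (x axis, log2) for the tested members of each gene list, with the number of tested members in brackets; each grey point is a gene, the red bar the list's median, and the dotted lines mark a 2-fold difference. The mitosis median is 0.37, that of extracellular matrix 0.24 and that of pigment cells -0.47, while ribosomal protein genes centre on 0.00.

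Lists of other cells and of housekeeping pathways moved little, with exceptions in small lists. All 6 myelin genes were above 0 (3125 of 6034 over all tested genes) with a median of 0.60. Their summed signal was 10816 in lesioned and 9310 in control retina of day 7, and 6002 in lesioned and 8092 in control retina of day 3. Among 6 endothelial genes aplnra, the apelin receptor, passed 2-fold upward at 1.02 (46 of 6034 over all tested genes). The summed signal of the 6 was 1982 in lesioned and 1248 in control retina of day 7, and 728 in lesioned and 432 in control retina of day 3. Muscle markers summed to 20261 to 23315 on the 4 arrays with a median difference of 0.00. The brightest member in lesioned retina of day 7 was ckmt2a, and the sum does not follow every member. ckma had 76.6 in lesioned and 61.1 in control retina of day 7, and 296 in lesioned and 192 in control retina of day 3. mylpfa was also lower on day 7 in both conditions. The list's median move was -0.69 in lesioned and -0.38 in control retina. A single lens gene was tested. Of 10 ganglion cell genes only tubb5 passed 2-fold, upward (46 of 6034 over all tested genes), with a list median of 0.20. The medians were -0.15 for 16 inner retinal neuron genes and -0.17 for 8 complement and plasma protein genes. Of the latter only c7b passed, downward (56 of 6034 over all tested genes). Medians were between -0.05 and 0.06 for the proteasome, protein folding, nucleolus, translation, glycolysis, cholesterol, synapse and respiratory chain lists. ndufa1, a subunit of respiratory complex I, was the 1 gene of these past 2-fold, at -1.05 (56 of 6034 downward over all tested genes).

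The pairs of days 2 and 14 share no array with this comparison and give the same genes at earlier and later times. Their arrays are of another technical batch than those of days 3, 5 and 7, so any order over the 5 days crosses batches. Of the 82 probe sets higher on day 7, 51 were also higher on day 14 than on day 2 (62.2%, against 51.2% of all tested). Of the 87 lower on day 7, 55 were lower on day 14 than on day 2 (63.2%, against 48.8%). tmsb had ratios of 0.78, -0.09, 1.63, 2.89 and 1.72 on days 2, 3, 5, 7 and 14, and tubb5 of 0.52, 0.33, 1.52, 2.22 and 1.56. For both genes the ratio was highest on day 7 and still above its day 2 value on day 14. The ratio of postnb was highest on day 5 at 2.31, but its lesioned signal was alike on days 5 and 7, at 361.5 and 355. Its control signal was low on both, at 33.1 and 70.6, so the control arrays and the added constant shape that order. fabp7a was at 0.83 by day 14, below its day 2 value of 1.24.

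socs3a had ratios of 3.44, 2.94, 1.88, 0.81 and 0.55 on days 2, 3, 5, 7 and 14, a descending order over all 5 days. Within the batch of days 3, 5 and 7 the order was also descending. jun descended likewise on its brightest tested probe set, through 2.60, 2.00, 1.51, 0.83 and 0.76. Its other probe set did not descend, with 0.19, 0.60 and 0.41 on days 3, 5 and 7. c7b descended over the 5 days through 3.69, 3.07, 2.72, 1.63 and 0.65. cyp26b1, in contrast, had ratios of 0.07, 1.63, 0.97, 0.13 and 0.27 on the 5 days, and a second probe set was higher on day 5 (0.84) than on day 3 (0.61). pdia5 had 0.19, 1.45, 0.45, -0.05 and 0.14, highest on day 3. A second probe set of pdia5 had -0.13, -0.19 and 0.62 on days 3, 5 and 7, highest on day 7. slc16a9a was at 0.31 on day 2 and krt5 at -0.07, against 2.25 and 1.42 on day 3.

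**Figure D5:**
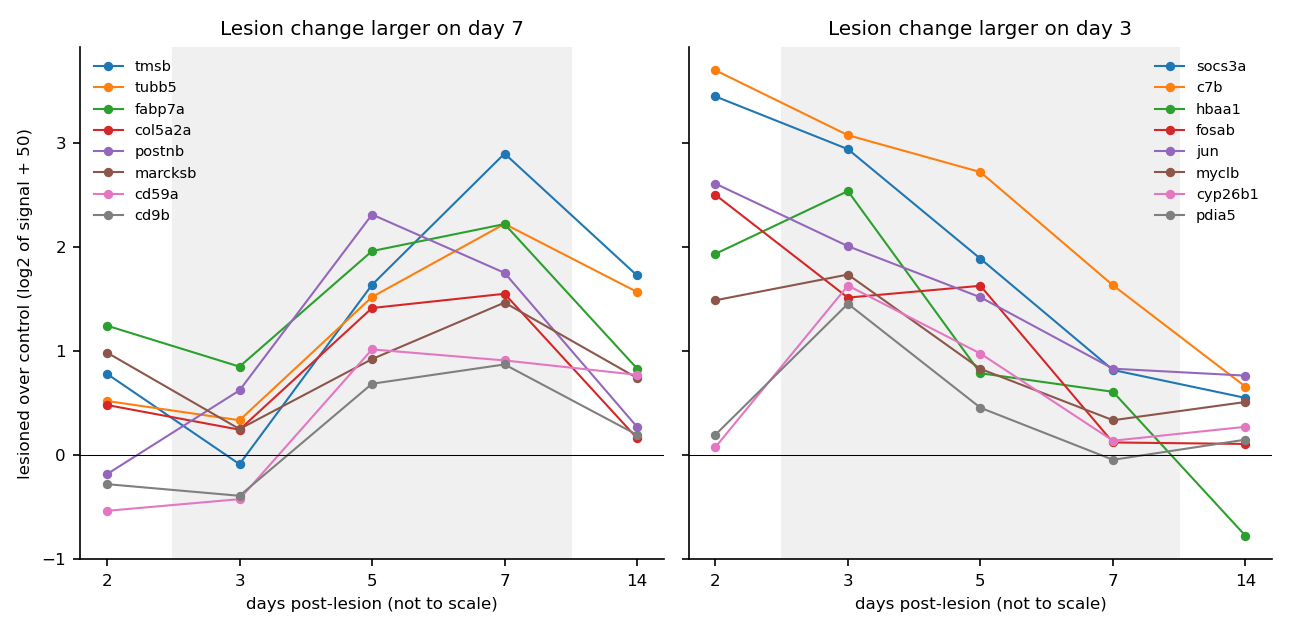
Log2 ratio of lesioned over control retina (signal + 50) on days 2, 3, 5, 7 and 14 for 8 genes with the larger ratio on day 7 (left) and 8 with the larger ratio on day 3 (right), 1 pair of arrays per point; the shaded days are those whose arrays had low GAPDH ratios. The tmsb and tubb5 lines are highest on day 7, while the socs3a, c7b and jun lines descend over the 5 days. Each line is the brightest tested probe set, and the other probe set of jun did not descend over days 3, 5 and 7. Days 2 and 14 are of another technical batch than the shaded days.

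Across all tested probe sets the signs of the ratios differed between the days in 35.8%, and in 118 of the 169 past 2-fold (69.8%), a share that choosing large differences raises by construction. Of the 102 genes past 2-fold, 17 had another tested probe set, and for 6 of these (jun, marcksa, pdia5, pleca, rgs5a and slc7a8a) it pointed the other way; pleca was named after its value was seen. Another 14 genes passed 2-fold only on a dimmer probe set. No condition has a second array, so the differences of single genes, the limma calls included, carry no replicate check. For the limma calls the error came from the pair of another day and from moderation across probe sets, not from replicates.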

How the data were processed

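Total RNA of 12 tissue samples was hybridised as biotin-marked target to Affymetrix zebrafish arrays. The deposited signal intensity values were made with GCOS per the submitters' processing notes (version not given in the sources used here), and a 2% trimmed mean near 500.1 on every array shows scaling by the authors; detection calls were not used here. Of 15617 probe sets, 115 controls were left out. The platform annotation gave 1 symbol for 10795, several for 135 and none for 4572; 10711 of the named had an ID in the current gene table.

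Probe sets above the 40th percentile of the mean over the arrays of days 3, 5 and 7 were tested (9301). limma 3.58.1 in R 4.3.3 fitted log2(signal + 50) with the day as a block, lesion, and lesion by day, with eBayes (trend; prior degrees of freedom 55.2) and Benjamini-Hochberg adjustment over all probe sets at 0.05. A gene is read on its brightest tested probe set. Pairing by day comes from the titles and design text, and deviations of same-day arrays correlated at 0.685, 0.335 and 0.653 on days 3, 5 and 7. Nothing shows that arrays come from separate animals, so the p-values cover the spread among these arrays alone, and that spread may be technical.

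Named are the limma calls, the 10 largest late-high and early-high and 6 largest late-low and early-low genes in which lesioned arrays moved more and the brightest array reached 200, the 4 largest in which controls moved more, the 3 largest of each list and its members past 2-fold, and a set of genes that includes regeneration genes; the marker genes of each cell type were read as well. Members, the 31 lists and this rule were chosen with earlier results of these data known. lin28a and rho had no probe set with 1 symbol, and esm1 was not tested. Planned promoter motifs were not analysed here. The fit was tested on simulated data. Alternatives covered the added constant, filter, normalization, block, trend and size threshold. Figures were drawn with matplotlib 3.10.9.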

Additional observations from a re-analysis of the deposited data

Results flagged for a closer look

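For 5 genes limma, adjusted over all probe sets, called a difference in lesion change between day 7 and day 3. With 1 array per condition, the error came from the day 5 pair and moderation across probe sets, not from replicates. limma made 0 calls with no filter, with a 60th percentile filter, without the day block and with all 5 day pairs. tmsb rose by 2.98 on the log2 scale, from both a higher lesioned and a lower control array on day 7. krt5 differed by -3.64, socs3a by -2.12, slc16a9a by -2.08 and hbaa1 by -1.93. In all 4 of these the control arrays moved more between the days than the lesioned arrays. krt5 and tmsb each had 1 control array with a signal under 10, so the added constant sets their size. hbaa1 moved beside the other globin hbba2, and the part of blood was not tested.

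Among the uncalled genes named for the size of their difference, the lesioned array of 2 lay at least 1.5-fold from its control in opposite directions on the 2 days. Beyond limma's fit, which did not call them, the difference was not tested. lrrn1 was above control on day 7 and below it on day 3, with a difference of 1.18. A second probe set of lrrn1 gave 0.12 and lay below control on both days, at -0.20 on day 7 and -0.31 on day 3. slc7a8a was below control on day 7 and above it on day 3, with a difference of -1.50, and a second probe set gave 0.18. Outside the rule for named genes and noted after their values were seen, npat (1.62), pigs (1.27), krt97 (-1.48) and tmem230b (-1.80) met the same description.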

How the results depend on the processing

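Counts of probe sets past 2-fold, given as higher and lower, moved with the added constant, the filter, the threshold and the use of controls. They were 182 and 166 with a constant of 16, 35 and 46 with 100, 368 and 260 with no filter, 41 and 39 with a 60th percentile filter, and 673 and 606 at 1.5-fold. Setting the lesioned arrays of the days directly against each other gave 354 and 350, sizes that use no controls. The residual spread of that fit came only from the control arrays of days 3, 5 and 7, so its test results are not given. limma's calls depended on the setting. It made 0 higher and 0 lower calls with no filter (695 at an unadjusted p under 0.05) and with the 60th percentile filter (130). It also made none without the replicate block (95) and with all 5 day pairs in the block. It made 1 lower call under quantile normalization and without the intensity trend, and 2 higher calls under median centring, where tubb5 joined tmsb. The day 7 minus day 3 sizes were the same in the fits with and without the block, which pairs arrays by day. With lesioned arrays alone the direction turned for several named genes. Among them were hbaa1 (1.56), hbba2 (1.36), mhc1ufa (1.42), rpe65a (1.15), atf3 (0.10), spc24 (-0.35) and tgif1 (-0.52). The direction also turned for list medians, among them ganglion cell (-0.10), interferon (0.42), pigment (1.15), complement (0.50), endothelium (0.89) and immediate early (0.14). Medians near 0 with controls turned as well for cholesterol (-0.39), erythrocytes (0.64) and muscle (-0.69). List medians then also moved for mitosis (0.81), immune (0.54) and matrix (0.71). The ganglion cell median was -0.018 with the 60th percentile filter. Leaving out a replicate was not possible, because each condition is 1 array and dropping day 5 leaves no residual degree of freedom. The cause of these shifts was not tested, beyond fewer or more probe sets under the filters. Low signals near 10, as in krt5, tmsb and lxn, set their own sizes through the constant.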
